A study of Mus musculus with 20 samples.

Results

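Markers of B cells, of T cells and of lymph node tissue set 2 of the 10 subcutaneous adipose tissue (SAT) libraries of this series apart from the rest, and 31 such genes are described here. They are 10 B cell genes, 14 T cell genes, 6 genes of node stroma and vessels, and the lymphocyte ligand gene Ltb, out of 40322 gene symbols in the table. They were chosen with the values of the SAT libraries in view, in particular those of sham SAT libraries 3 and 4 against the other 8. All 10 SAT libraries entered that choice. Differences of the members between those libraries, between the surgery groups of SAT, and between SAT and liver are therefore given as a description, and of the members' contrasts the surgery comparison in liver alone is tested. The series holds bulk RNA-seq of SAT and liver from male C57BL/6J mice, an inbred laboratory strain, operated on at 8 to 9 months of age. In the VAT removed mice the surgeon had cut out the epididymal fat pads, a visceral adipose tissue (VAT), and in the sham mice the abdomen had only been cut open. All mice ate a high-fat diet after surgery, so no group stands for mice on a regular chow diet. The 4 groups are VAT removed SAT, sham SAT, VAT removed liver and sham liver, with 5 libraries each, numbered 1 to 5 in their labels. Neither the subcutaneous depot nor the length of the diet is stated in the labels, nor whether libraries with the same number came from 1 mouse.

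B cells recognise antigen through a surface immunoglobulin that signals through the Cd79a and Cd79b chains, and T cells through a receptor that signals through the Cd3 chains, Lck and Zap70. In lymph nodes B cells gather in follicles around stroma that makes the chemokine Cxcl13, the ligand of Cxcr5, while T cells gather in zones whose stroma makes Ccl19, a ligand of Ccr7. Lymphocytes enter nodes through high endothelial venules that display sulfated sugar ligands, and lymphotoxin made by lymphocytes maintains this stroma. In mice, nodes lie embedded in several fat depots, and fat and liver also hold lymphocytes of their own.

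Total counts were between 20307159 and 43618452 per library. Each tissue carried its own marker: Adipoq, the adiponectin gene of fat cells, had 964.2 to 2388 CPM in the SAT libraries and no more than 0.351 CPM in the livers, and Alb, the albumin gene of hepatocytes, no more than 31.2 CPM in SAT. CPM are counts scaled to library size, here with edgeR's TMM factors within each tissue. Sham SAT libraries 3 and 4 stood apart from the other 8 SAT libraries over much of the table. Of 30402 entries with any count in SAT, 17.6% were higher in both than in each of the other 8 and 14.2% were lower in both. Of 15572 entries with a mean of at least 1 CPM in SAT, these shares were 23.5% and 26.2%. No pair of libraries in a group agreed within sampling noise. The pair with the lowest chi-square, sham SAT 3 and 4, had 16.2 per gene and a correlation of log2 CPM of 0.993 across genes, and sham liver 3 and 4 had 18.1 per gene and 0.993.

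Upstream sequence was read for the members from RefSeq's promoter table on GRCm38.p6, which held 23 of the 31. The 250 bases before the start site are shown for members of each role: Cd79a and Cd22, a B cell receptor chain and its inhibitory partner; Cd3d, a T cell receptor chain; Ltb; and Glycam1 and Cxcl13, a node vessel mucin and the follicle chemokine. They lie at chr7:24897247-24897496 (plus strand, Cd79a), chr7:30879029-30879278 (minus, Cd22), chr9:44981536-44981785 (plus, Cd3d), chr17:35194257-35194506 (plus, Ltb), chr15:103565082-103565331 (minus, Glycam1) and chr5:95956689-95956938 (plus, Cxcl13). Each is written 5′ to 3′ on its gene's strand, and capitals mark E-boxes (CAGGTG or CAGCTG) and the ETS motif AGGAAGT, found on either strand.
Cd79a: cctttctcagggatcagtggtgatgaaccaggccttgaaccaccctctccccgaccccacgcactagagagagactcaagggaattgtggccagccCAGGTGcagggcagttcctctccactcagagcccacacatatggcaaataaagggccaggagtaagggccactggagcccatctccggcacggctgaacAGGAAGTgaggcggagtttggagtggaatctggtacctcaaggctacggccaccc
Cd22: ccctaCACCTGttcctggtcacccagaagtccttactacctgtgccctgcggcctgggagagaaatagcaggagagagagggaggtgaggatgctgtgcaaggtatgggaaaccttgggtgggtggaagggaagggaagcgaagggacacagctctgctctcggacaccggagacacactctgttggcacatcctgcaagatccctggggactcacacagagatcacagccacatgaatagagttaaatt
Cd3d: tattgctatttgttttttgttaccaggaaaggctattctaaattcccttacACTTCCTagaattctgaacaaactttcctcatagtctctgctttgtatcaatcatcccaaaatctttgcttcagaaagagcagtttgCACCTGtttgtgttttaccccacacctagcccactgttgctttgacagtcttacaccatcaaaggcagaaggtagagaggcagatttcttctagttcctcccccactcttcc
Ltb: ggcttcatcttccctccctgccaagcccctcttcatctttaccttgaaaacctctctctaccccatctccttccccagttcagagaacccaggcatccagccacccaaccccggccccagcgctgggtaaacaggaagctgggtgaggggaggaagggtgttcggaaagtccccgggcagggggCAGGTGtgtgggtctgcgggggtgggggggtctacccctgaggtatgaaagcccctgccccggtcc
Glycam1: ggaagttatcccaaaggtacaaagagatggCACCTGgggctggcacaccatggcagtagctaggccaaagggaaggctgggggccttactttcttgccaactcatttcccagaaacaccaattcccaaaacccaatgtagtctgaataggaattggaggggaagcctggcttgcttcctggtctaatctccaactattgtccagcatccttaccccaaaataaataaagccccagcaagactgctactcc
Cxcl13: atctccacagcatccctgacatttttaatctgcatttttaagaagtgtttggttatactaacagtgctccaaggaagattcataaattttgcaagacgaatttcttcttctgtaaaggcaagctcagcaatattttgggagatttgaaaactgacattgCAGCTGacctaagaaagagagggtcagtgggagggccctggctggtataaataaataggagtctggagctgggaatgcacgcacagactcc
The E-box CAGGTG was present in 12 of the 23 members with a promoter in the table (52.2%), against 19.4% of all 27025 genes there, and it occurred in B cell, T cell and vessel genes and in Ltb. Its counterpart CAGCTG was present in 6 of the 23 (26.1%), against 14.7% of all genes. AGGAAGT, a motif bound by ETS factors, was present in 7 members, of which 6 were T cell genes and the other Cd79a (30.4%, against 8.80% of all genes). TGTGGT, a RUNX motif, was in 6 members (26.1%, against 15.9%), and a loose kappaB pattern, GGG and CC with 5 free bases between, in 14 (60.9%, against 48.7%). An EBF pattern, TCCC and GGGA with 2 free bases between, was in Cd22 alone (4.35%, against 0.914%), and the octamer ATGCAAAT in 0 of the 23, against 1.81% of all genes. Both strands were searched, each motif on its own whether or not it overlapped another, and genes with several promoters counted once. Among the 18 members with a single promoter in the table, 9 held CAGGTG, against 17.1% of such genes. These letters are a description of the windows and were not tested.

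All 31 members were higher in both sham SAT library 3 and sham SAT library 4 than in each of the other 8 SAT libraries, where 17.6% of entries with any SAT count were so. In 27 of the 31 the lower of the pair was at least 5 times the highest of the other 8, against 2.26% of entries with any SAT count and 1.64% of those with a mean of at least 1 CPM. Chst4 was counted here against a floor of 3 counts per library. Since the members were chosen on these libraries, nothing is read from those shares. The B cell genes stood furthest apart, with a median of 44.8 for the lower of the pair over the highest of the other 8, against 16.4 for the T cell genes. In bulk tissue, fewer cells of a type and less RNA per cell cannot be told apart.

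**Figure D1:**
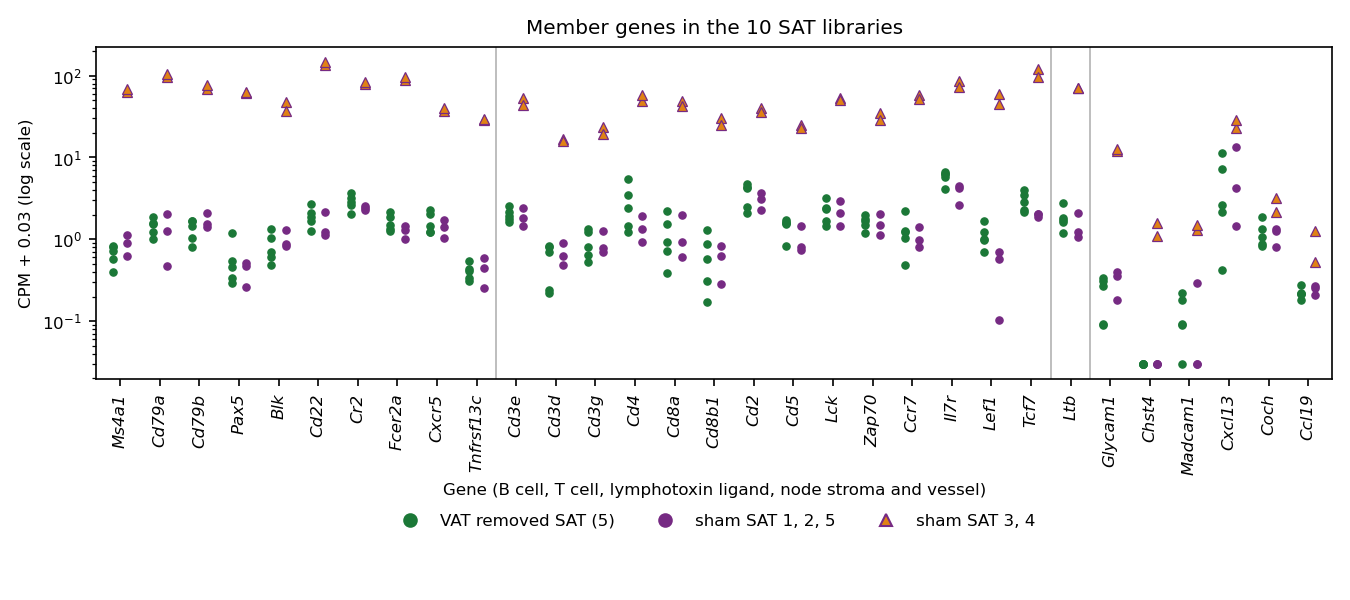
CPM plus 0.03 (log scale) of the 31 members in the 10 SAT libraries, 1 point per library, with genes in the order B cell, T cell, Ltb, node stroma and vessel. For the B and T cell genes and Ltb, sham libraries 3 and 4 (triangles) lie far above the 5 VAT removed libraries and the other 3 sham libraries, while for Cxcl13 and Coch the gap is 1.72 and 1.15 times.

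Among the B cell genes, Ms4a1, which encodes the surface protein CD20, had 0.769, 0.807, 0.694, 0.364 and 0.550 CPM in VAT removed SAT libraries 1 to 5, against 1.10, 0.863, 63.1, 68.6 and 0.591 CPM in sham SAT libraries 1 to 5. Cd79a, a signalling chain of the B cell receptor, had 1.84, 1.5, 0.981, 1.18 and 1.56 CPM in VAT removed SAT, against 1.22, 1.98, 95.7, 105.1 and 0.443 CPM in sham SAT. Pax5, the transcription factor that maintains B cell identity, had 0.430, 0.308, 0.263, 0.515 and 1.16 CPM in VAT removed SAT, against 0.477, 0.228, 62.1, 63.6 and 0.443 CPM in sham SAT. For these 3 genes sham libraries 1, 2 and 5 overlapped with the VAT removed libraries, and libraries 3 and 4 alone were high. In the lower of the pair, Ms4a1 was 57.2 times, Cd79a 48.3 times and Pax5 53.4 times the highest of the other 8 libraries. Pax5 had the highest ratios of all members to the median of the other 8, at 142.1 in library 3 and 145.6 in library 4.

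Cr2 and Fcer2a encode the complement receptor CD21 and the low-affinity IgE receptor CD23, both found on mature B cells, and Cxcr5 is the receptor that leads B cells to follicles. Cr2 had 3.69, 2.00, 2.58, 2.85 and 3.15 CPM in VAT removed SAT, against 2.39, 2.51, 78.2, 84.3 and 2.25 CPM in sham SAT. Fcer2a had 2.12, 1.23, 1.32, 1.85 and 1.47 CPM in VAT removed SAT, against 1.25, 0.965, 87.4, 96.1 and 1.44 CPM in sham SAT. Cxcr5 had 1.41, 2.00, 1.20, 1.18 and 2.26 CPM in VAT removed SAT, against 1.01, 1.68, 36.6, 40.2 and 1.37 CPM in sham SAT. Again the 3 other sham libraries lay among or just below the VAT removed ones. Cxcr5 had the smallest gap of the B cell genes, at 16.2 times the highest of the other 8. The remaining B cell genes are Cd79b, the partner chain of Cd79a; Blk, a kinase of B cell receptor signalling; Cd22, an inhibitory lectin; and Tnfrsf13c, the receptor for the survival factor BAFF. Cd79b had 68.5 and 77.8 CPM in libraries 3 and 4, against 0.765 to 2.09 CPM in the other 8, a gap of 32.8 times. Blk had 47.7 and 37.2 CPM against 0.461 to 1.29 CPM, a gap of 28.8 times. Cd22 had 135.8 and 146.4 CPM against 1.09 to 2.71 CPM, and Tnfrsf13c 28.9 and 29.8 CPM against 0.222 to 0.558 CPM, with gaps of 50.2 and 51.8 times. All 4 thus repeated the split seen in the B cell genes above. Per kilobase of exon, Cd79a was the most abundant member in libraries 3 and 4, at a mean of 68.9 CPM per kilobase, followed by Cd79b at 51.1. In the other 8 libraries the members with the highest medians per kilobase were Cxcl13 at 2.95, Cd2 at 1.91 and Ltb at 1.09 CPM per kilobase.

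Among the T cell genes, Cd3e, a signalling chain of the T cell receptor, had 1.75, 1.88, 1.60, 2.12 and 2.54 CPM in VAT removed SAT, against 2.42, 1.80, 53.9, 43.3 and 1.44 CPM in sham SAT. Cd4, the co-receptor of helper T cells, had 5.50, 1.42, 1.20, 2.36 and 3.43 CPM in VAT removed SAT, against 1.91, 1.32, 49.3, 58.0 and 0.887 CPM in sham SAT. Cd8a, the co-receptor of cytotoxic T cells, had 0.891, 1.5, 0.359, 0.697 and 2.20 CPM in VAT removed SAT, against 1.94, 0.584, 48.8, 43.0 and 0.887 CPM in sham SAT. Helper and cytotoxic co-receptor genes were thus both high in the same 2 libraries, and outside them Cd4 was highest in VAT removed library 1. That library brought the gap of Cd4 down to 8.95 times, against 17.1 for Cd3e and 19.5 for Cd8a.

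Ccr7, Il7r, Lef1 and Tcf7 are high in naive and central memory T cells: a homing receptor for the T zone, the receptor of the survival factor interleukin 7, and 2 related transcription factors. Ccr7 had 2.21, 1.23, 1.00, 0.455 and 1.19 CPM in VAT removed SAT, against 0.775, 1.37, 57.9, 51.9 and 0.960 CPM in sham SAT. Il7r had 6.21, 6.57, 6.32, 4.06 and 5.72 CPM in VAT removed SAT, against 4.18, 2.61, 85.8, 73.5 and 4.4 CPM in sham SAT. Il7r was above 2 CPM in every SAT library. Lef1 had 0.953, 1.19, 0.981, 0.667 and 1.62 CPM in VAT removed SAT, against 0.537, 0.660, 60.3, 45.4 and 0.0739 CPM in sham SAT. Tcf7 had 3.47, 2.23, 2.15, 2.82 and 3.94 CPM in VAT removed SAT, against 1.85, 2.03, 120.4, 97.5 and 2.03 CPM in sham SAT. For Lef1 and Tcf7 all 5 VAT removed libraries lay above sham libraries 1, 2 and 5, and all were below libraries 3 and 4. For Lef1 this rested on 0.667 CPM in VAT removed library 4 against 0.660 CPM in sham library 2. The share of all genes separated in this way was not computed, so nothing is read from it.

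The other T cell genes were Cd3d and Cd3g, further receptor chains; Cd8b1, the second CD8 chain; Cd2 and Cd5, surface proteins that tune activation; and the receptor kinases Lck and Zap70. Their gaps ran from 7.44 times for Cd2 to 19.8 times for Cd8b1. Cd3d had 16.8 and 15.7 CPM in libraries 3 and 4, against 0.191 to 0.865 CPM in the other 8, and Cd3g 23.8 and 19.4 CPM against 0.502 to 1.30 CPM. Cd8b1 had 30.3 and 24.8 CPM against 0.144 to 1.25 CPM, and Cd5 24.8 and 23.0 CPM against 0.711 to 1.69 CPM. Lck had 53.1 and 50.5 CPM against 1.44 to 3.21 CPM, and Zap70 34.9 and 29.0 CPM against 1.11 to 2.03 CPM. Cd2 had the smallest gap of all 14, with 40.5 and 35.4 CPM in libraries 3 and 4, against 2.06 to 4.76 CPM in the other 8. The 3 Cd3 genes are neighbours on chromosome 9, from position 44969572 to 45009627 of GRCm38 in GENCODE M21. Cd8b1 and Cd8a are neighbours on chromosome 6, from 71322788 to 71379173. The strand setting of the counting is not stated, so reads of overlapping or antisense transcripts cannot be told apart.

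Ltb encodes the membrane anchor of lymphotoxin, which both B and T cells make. It had 1.78, 1.69, 1.60, 1.15 and 2.75 CPM in VAT removed SAT, against 2.09, 1.19, 70.3, 70.9 and 1.03 CPM in sham SAT. The lower of the pair was 25.5 times the highest of the other 8, between the medians of the B cell and the T cell genes.

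The 6 stroma and vessel genes were less alike. Glycam1, a mucin of high endothelial venules, had 0.0615, 0.308, 0.239, 0.0606 and 0.275 CPM in VAT removed SAT, against 0.328, 0.152, 11.9, 12.8 and 0.369 CPM in sham SAT. Its gap of 32.3 times was within the range of the B cell genes. Chst4, a sulfotransferase of the sugar ligands of these venules, had 0 counts in all 5 VAT removed libraries and in sham libraries 1, 2 and 5, against 52 and 36 counts (1.55 and 1.06 CPM) in sham libraries 3 and 4. With 3 counts allowed in each library at 0, Chst4 was at least 9.22-fold higher in the lower of the pair. Madcam1, an adhesion molecule of venules in mucosal nodes, had 2, 0, 8, 2 and 5 counts in VAT removed SAT, against 0, 0, 43, 50 and 7 counts in sham SAT. Its values were 1.28 and 1.48 CPM in libraries 3 and 4 and at most 0.259 CPM in the other 8. Counts this low carry wide counting error.

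Cxcl13, the follicle chemokine, spread widely over the SAT libraries. It had 11.2, 2.15, 7.22, 0.394 and 2.60 CPM in VAT removed SAT, against 4.18, 13.4, 23.0, 28.9 and 1.44 CPM in sham SAT. Sham library 2 was thus at 13.4 CPM while its Ms4a1 and Cd3e were at 0.863 and 1.80 CPM, within the range of the other low libraries. Coch, which encodes cochlin, an extracellular protein made by follicular dendritic cells of mouse nodes, had 1.32, 1.04, 0.789, 0.849 and 1.87 CPM in VAT removed SAT, against 1.31, 1.22, 2.14, 3.19 and 0.776 CPM in sham SAT. Library 3 exceeded the highest of the other 8 only by 1.15 times for Coch, and by 1.72 times for Cxcl13. Ccl19, the T zone chemokine, had 8, 4, 8, 6 and 6 counts in VAT removed SAT, against 8, 7, 42, 17 and 6 counts in sham SAT, which is 1.25 and 0.502 CPM in libraries 3 and 4. Just inside the stated gap of 5 times lay Cd2 at 7.44, and just outside it Madcam1 at 4.94.

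Values of the members also differed between libraries 3 and 4. The ratio of CPM in library 3 to library 4 had a median of 0.924 over the B cell genes and 1.16 over the T cell genes. Of the 10 B cell genes 9 were higher in library 4, with Blk (1.28) the exception, and of the 14 T cell genes 13 were higher in library 3, with Cd4 (0.850) the exception. Ltb, made by both kinds of cell, was at 0.991. Ccl19 had the highest ratio, 2.49, and Coch the lowest, 0.671. Genes outside the members that belong to the same cells went the same way in part. Of 6 measured T cell receptor constant genes, 5 were higher in library 3, and of the 9 regulatory and helper T cell genes 8 were. Of the 8 immunoglobulin constant genes 6 were higher in library 4. Lists of other cells were as one-sided. All 10 adipocyte genes were higher in library 3, and 14 of 15 dendritic cell and class II genes in library 4. The share of all entries higher in either library was not computed, so nothing is read from these counts.

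**Figure D2:**
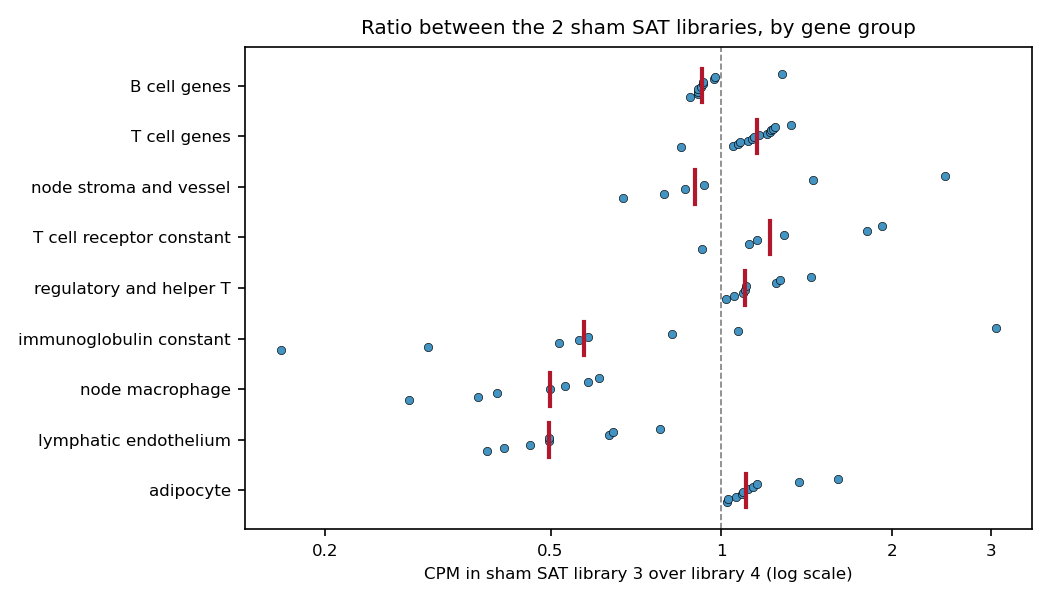
CPM in sham SAT library 3 over library 4 (log scale), 1 point per gene and a bar at the median of each group, for all members by role (Ltb not drawn) and, in other gene lists, for genes with at least 1 CPM in both libraries. B cell genes lie mostly just below 1 and T cell genes just above, while macrophage and lymphatic endothelial genes lie well below 1.

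Summed over genes, the B cell members had 703.9 and 749.1 CPM in sham SAT libraries 3 and 4, against 10.3 to 16.0 CPM in the other 8 SAT libraries. The T cell members had 700.6 and 610.6 CPM in libraries 3 and 4, against 18.1 to 34.4 CPM in the other 8. Together with Ltb and the stroma genes they took 0.169% and 0.170% of all counts in these libraries, against 0.00321% to 0.00664% in the other 8. Of the counts of B and T cell members, T cell genes made up 49.9% in library 3 (95% exact interval 49.4 to 50.3) and 44.9% in library 4 (44.4 to 45.4), against 61.4% to 71.3% in the other 8. The balance between the roles thus differed as well as the amount. These intervals cover counting error alone.

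**Figure D3:**
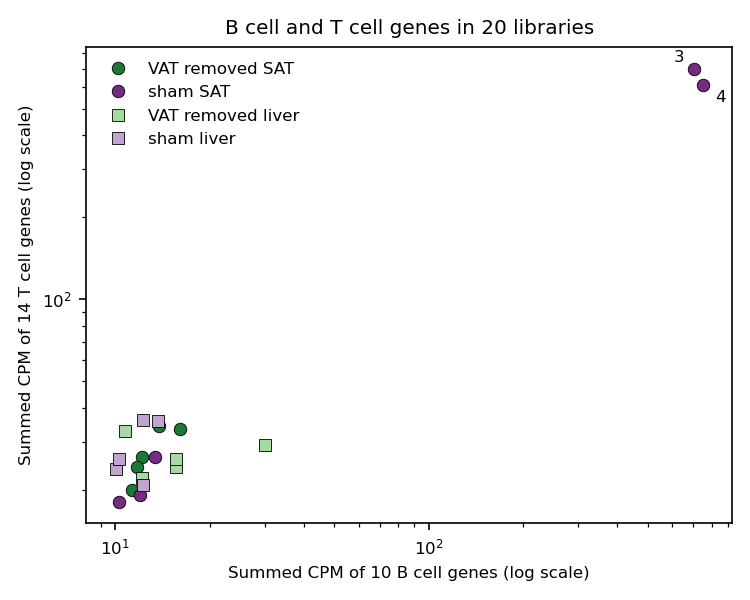
Summed CPM of the 14 T cell genes against that of the 10 B cell genes in all 20 libraries, both on log scales. CPM were scaled within each tissue, so SAT and liver values are not on one scale. Sham SAT libraries 3 and 4 (labelled) lie far above the rest on both axes, while the other 18 libraries lie between 10.0 and 30.1 CPM for B cell genes and between 18.1 and 36.2 CPM for T cell genes.

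Other lymphocyte genes, from lists written with earlier results known, stood with the members. Of 20 further B and T cell genes 17 were above the other 8 in both libraries, where 17.6% of entries with any SAT count were. Of entries averaging at least 1 CPM in SAT, 23.5% were. These shares stand beside the counts of the other lists here too. Spib, a B cell transcription factor, had 68.5 and 70.5 CPM in libraries 3 and 4, against at most 1.15 CPM in the other 8. The exceptions were Ebf1, S1pr1 and Klf2, which cells of fat and vessels also express. Ebf1, a B cell factor that adipocytes use too, had 223.6 and 213.1 CPM, within the 208.4 to 288.2 CPM of the other 8. All 6 T cell receptor constant genes in the table were above in both, with Trac at 24.6 and 21.3 CPM against at most 2.35. Reads of near-identical constant genes, such as Tcrg-C1 and Tcrg-C2 or the Ighg genes, may be shared between copies. All 9 regulatory and helper T cell genes were above as well, with Foxp3, the factor of regulatory T cells, at 14.9 and 13.6 CPM against 1.68 to 3.87 CPM. Of 10 NK and cytotoxic genes 4 were above, with Ccl5 at 56.5 and 53.6 CPM against at most 6.47.

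Antibody genes followed the members less closely. Ighm, the constant gene of IgM, had 922.1 and 1124 CPM in libraries 3 and 4, within the 426.5 to 1336 CPM of the other 8, and Igkc had 200.4 and 386.5 CPM against 11.8 to 249.1 CPM. The other 6 of the 8 constant genes in the table were above in both libraries. Ighg2b was 41.7 and 249.3 CPM in libraries 3 and 4, a ratio of 0.167, and Igha was 32.2 and 10.5 CPM, a ratio of 3.06. Of 9 plasma cell genes 4 were above and 2 below, and of 9 germinal centre genes 4 were above. Of entries averaging at least 1 CPM in SAT, 23.5% were above and 26.2% below, so the plasma cell genes below were near that share.

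The lymphotoxin and homing pathway of the members split between ligands and receptors. Of its 14 genes that are not members, 10 were above the other 8 in both libraries and 2 below. Among entries averaging at least 1 CPM in SAT, 23.5% were above and 26.2% below. Lta, the soluble partner of Ltb, had 6.78 and 6.26 CPM in libraries 3 and 4, against at most 0.245 CPM in the other 8. The receptor genes Ltbr and Tnfrsf1a, which stroma and many other cells express, were the 2 below, at 57.0 and 57.1 CPM against 73.7 to 89.9 CPM for Ltbr. Ccl21a, the main T zone chemokine of mouse nodes, was at 0.0594 and 0 CPM in libraries 3 and 4 and at 0 in the other 8. Near-identical copies of that gene exist, and the handling of reads with several matches is not stated. Genes of node vessels and stroma went both ways. Of 10 high endothelial venule genes 5 were above and 1 below, where 17.6% and 14.2% of entries with any SAT count were. Of entries averaging at least 1 CPM in SAT, these shares were 23.5% and 26.2%. Fut7, a fucosyltransferase of venule sugar ligands, had 2.97 and 3.04 CPM against at most 0.879, while Vcam1, an adhesion molecule of activated vessels, was barely above the highest of the other 8 in library 3, at a ratio of 1.00. Ackr1, a chemokine receptor of venules, had 6.48 and 7.80 CPM against 7.73 to 16.4 CPM, so that only library 3 lay below. The venule gene below in both was Selp, with 5.08 and 5.88 CPM against 6.27 to 14.8 CPM. Of 14 follicular dendritic and reticular stroma genes 7 were above and 2 below. Grem1, a BMP antagonist of node stroma, had 5.71 and 7.03 CPM against at most 0.0478, while Pdpn, the podoplanin gene of reticular and lymphatic cells, had 5.53 and 8.57 CPM against 11.4 to 21.3 CPM.

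Genes of other cells also differed between these libraries, and their part in the members' values was not tested. For scale, 17.6% of entries with any SAT count were above in both libraries and 14.2% below. Among entries averaging at least 1 CPM in SAT, 23.5% were above and 26.2% below. Of 15 dendritic cell and class II genes 14 were above in both libraries, with a sum of 2689 and 3147 CPM against 1103 to 2003 CPM in the other 8. Of 9 cell cycle genes 8 were above (217.7 and 178.9 CPM against 71.9 to 119.3 CPM). Of 7 node macrophage genes 3 were above and 0 below. Of 9 lymphatic endothelial genes 3 were above and 1, Pdpn, below. Marco, a scavenger receptor of medullary macrophages, had 42.6 and 114.2 CPM against at most 5.58, and Prox1, the lymphatic endothelial factor, 10.5 and 21.1 CPM against at most 1.82. Mrc1, the mannose receptor of tissue macrophages, went lower in library 3 alone, with 116.7 and 191.4 CPM against 175.9 to 340.8 CPM, and so did Lyve1, a lymphatic hyaluronan receptor, with 17.9 and 46.4 CPM against 27.3 to 70.3 CPM. All 7 macrophage genes and 8 of the 9 lymphatic genes were higher in library 4 than in library 3, a share not computed for all entries. Adipocyte genes went the other way, with 9 of 10 below the other 8 in both libraries and a sum of 12770 and 11139 CPM against 17793 to 25905 CPM. Of 6 adipose progenitor genes 5 were below, where 26.2% of entries averaging at least 1 CPM in SAT were. Of 7 skeletal muscle genes 1 was below in both, and their sum was 14.0 and 15.1 CPM in libraries 3 and 4 against 16.7 to 25627 CPM. Of 7 skin and mammary epithelial genes 1 was above and 1 below. The basal keratin genes Krt5 and Krt14 had 0 counts in libraries 3 and 4. In the other 8 their medians were 0 too, with at most 0.0769 and 0.0239 CPM. None of the 7 erythroid and spleen genes was above, and Tlx1, a factor of spleen development, had at most 0.0306 CPM in SAT.

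**Figure D4:**
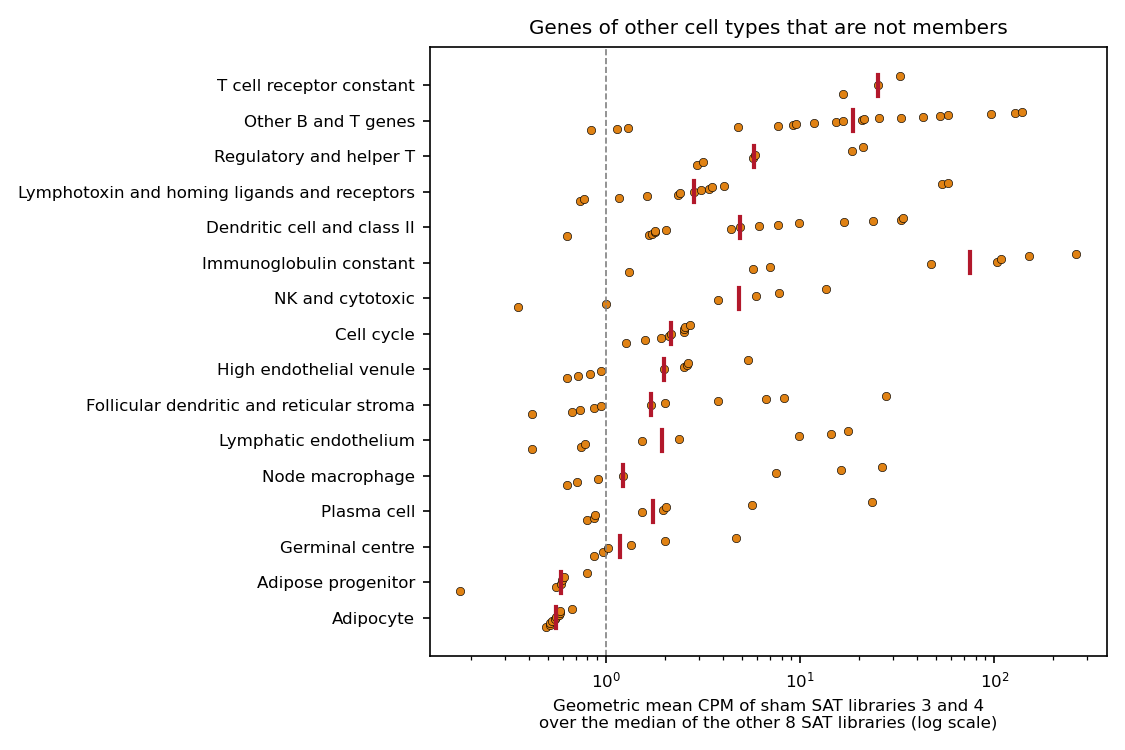
Geometric mean CPM of sham SAT libraries 3 and 4 over the median of the other 8 SAT libraries (log scale), 1 point per gene that is not a member, with the median of each list as a bar. Genes with a mean under 1 CPM in SAT, or a median of 0 in the other 8 (Grem1 among them), are not drawn, and all adipocyte and adipose progenitor genes drawn lie below 1.

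The genes of the whole table most like the members were sought by the ratio of the lower of libraries 3 and 4 to the highest of the other 8, over the 10 SAT libraries and among genes averaging at least 1 CPM there. Among the 12 highest outside the members were Dsc3 (350.9), Grem1 (119.2), Ccr6 (86.2), Pcdh15 (79.5), Spib (59.8), St8sia1 (58.9), Nsg2 (58.8), Fcmr (56.9), Apol7c (54.7), Dsg2 (54.4) and Fcrl1 (44.4). Dsc3 and Dsg2 encode desmosomal cadherins, and Ccr6, Fcmr and Fcrl1 surface receptors of B cells. Dsc3 had 23.1 and 21.3 CPM in libraries 3 and 4, against 0 to 0.0606 CPM in the other 8. The 6 most unlike, with the lowest ratios of the higher of the pair to the lowest of the other 8, were Stk32b, Arsj, Tmem28, Pcdh9, Kcnn3 and Pkd1l2, at 0.364 to 0.435.

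The SAT comparison of surgery groups as labelled mixes these libraries into the sham side. Over all 5 sham libraries Ms4a1 averaged 0.637 ± 0.181 CPM in VAT removed SAT and 26.8 ± 35.6 CPM in sham SAT (SD, n = 5 each), so the sham SD exceeded its mean. Of the 31 members 27 passed edgeR's filter on low counts there, all 27 had lower values in VAT removed SAT, and their median log2 difference was -3.96, against -0.0020 over all 18530 genes tested. As the members were chosen on these libraries, their values here are descriptions. Over the whole table, edgeR's quasi-likelihood test called 0.0% of genes in either direction at an adjusted p of 0.05, with 4.38% higher and 6.27% lower at an unadjusted p under 0.05. DESeq2 called 51 genes higher and 106 lower, and limma-voom called 0 and 0.

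Without sham libraries 3 and 4, an alternative added after the values were seen, the members no longer stood on the sham side. The remaining comparison, of 5 VAT removed with 3 sham libraries, is over libraries in which the members were low. Of 27 members tested, 19 were higher and 8 lower in value after VAT removal, with a median log2 difference of 0.20 against 0.012 over all 19035 genes. Over the whole table edgeR called 0 genes in either direction (0.0%), with 4.7% higher and 4.07% lower at an unadjusted p under 0.05, and DESeq2 called 28 genes higher and 50 lower. Among the T cell genes the log2 difference was 0.63 ± 0.22 (SE) for Il7r, 1.31 ± 0.52 for Lef1 and 0.57 ± 0.24 for Tcf7, given as descriptions. They are named because they were the 3 members with an unadjusted edgeR p under 0.05. Their edgeR adjusted p were 0.555, 0.561 and 0.561. Lef1 and Tcf7 were higher in all 5 VAT removed libraries than in sham libraries 1, 2 and 5. The share of all genes so separated was not computed, and Lef1 had only 2 counts in sham library 5. For Il7r, 4 of the 5 VAT removed libraries were above all 3 sham ones, while VAT removed library 4, at 4.06 CPM, lay below sham libraries 1 and 5.

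In liver, none of the members differed by surgery after correction. Of 25 members tested, 15 were higher and 10 lower in value in VAT removed livers, with a median log2 difference of 0.20 against 0.012 over all 17078 genes tested. edgeR called 0 genes higher and 0 lower (0.0% each), with 799 higher and 892 lower at an unadjusted p under 0.05, which is 4.68% and 5.22% of genes. DESeq2 called 89 genes higher and 134 lower, limma-voom 1 and 2, and neither called a member. Past an unadjusted p of 0.05 were 4 members, of which the B cell genes Ms4a1, Cd79a and Pax5 were higher and the T cell gene Cd8b1 lower. The members too low to be tested were Tnfrsf13c, Cd3d, Glycam1, Madcam1, Cxcl13 and Ccl19.

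Ms4a1 had 1.56, 0.660, 1.59, 0.384 and 0.5 CPM in VAT removed livers 1 to 5, against 0.561, 0.488, 0.213, 0.189 and 0.553 CPM in sham livers 1 to 5. Cd79a had 4.24, 2.30, 2.19, 0.998 and 0.736 CPM in VAT removed livers, against 1.02, 1.15, 0.780, 0.661 and 1.02 CPM in sham livers. Pax5 had 2.93, 1.00, 0.747, 0.422 and 0.263 CPM in VAT removed livers, against 0.491, 0.460, 0.213, 0.252 and 0.524 CPM in sham livers. VAT removed livers 1, 2 and 3 were above all sham livers for these 3 genes, and livers 4 and 5 overlapped with them. Their log2 differences were 1.20 ± 0.49, 1.18 ± 0.43 and 1.46 ± 0.60 (SE), with edgeR adjusted p of 0.462, 0.408 and 0.466. Without VAT removed liver 1 they were 0.92, 0.74 and 0.64. Cd8b1, the second CD8 chain, had 0.159, 0.316, 0.0997, 0.346 and 0.526 CPM in VAT removed livers, against 0.491, 1.21, 0.461, 0.252 and 1.25 CPM in sham livers. Its log2 difference was -1.29 ± 0.52, with an edgeR adjusted p of 0.459. It was highest in sham livers 2 and 5.

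Some livers stood apart in the sum of 1 role. VAT removed liver 1 had a B cell sum of 30.1 CPM, against 10.7 to 15.6 CPM in the other 4 VAT removed livers and 10.0 to 13.7 CPM in sham livers. VAT removed livers 2 and 3, both at 15.6 CPM, were also above the sham livers. The same library had 16.2 CPM of Cxcl13, from 509 counts, against at most 0.199 CPM in the other 4 VAT removed livers and at most 0.630 CPM in sham livers. Its T cell sum did not stand out, so T cell genes made up 49.4% of its B and T counts, against 60.8% to 75.4% in the other 4 VAT removed livers and 62.8% to 74.7% in sham livers. Leaving out Zap70 and Tcf7, a choice made after their values were seen, the T cell sum was 15.9 CPM in VAT removed liver 5 and 16.3 and 20.9 CPM in sham livers 2 and 5, against 4.38 to 8.45 CPM in the other 7 livers. Those 3 livers were high in Cd3e, at 2.58 CPM in VAT removed liver 5 and 2.56 and 3.14 CPM in sham livers 2 and 5, where the other 7 had 0.630 to 1.06 CPM.

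**Figure D5:**
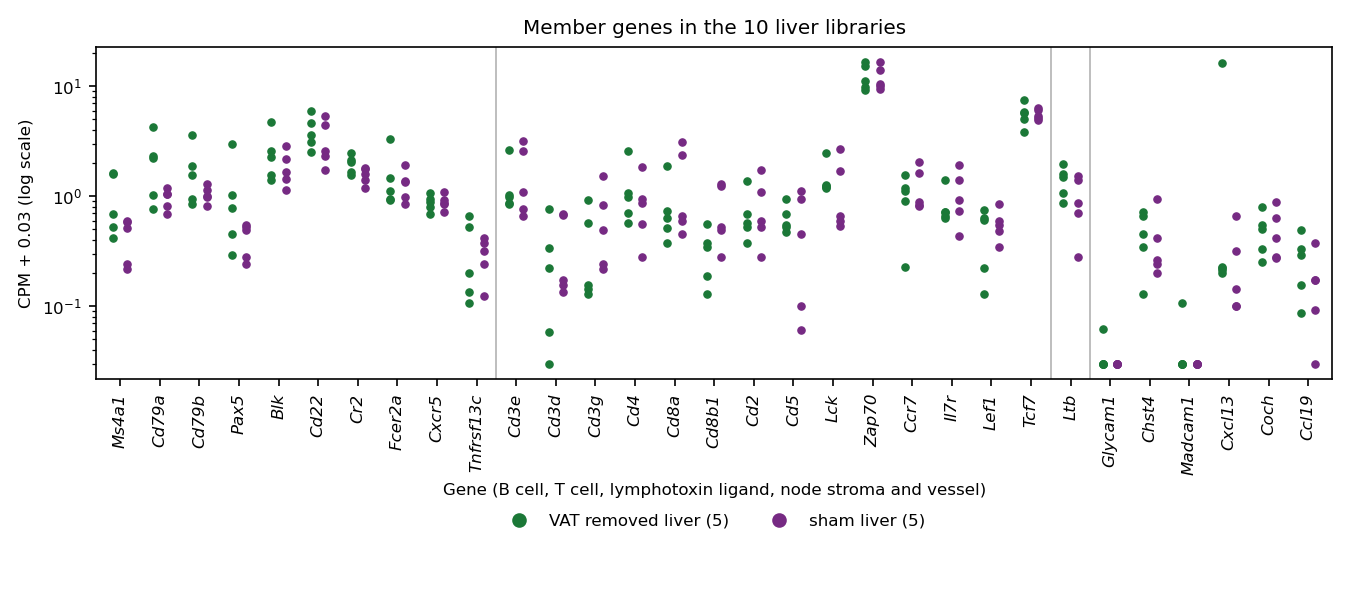
CPM plus 0.03 (log scale) of the 31 members in the 10 liver libraries, VAT removed left of sham for each gene. The groups overlap for every member with a count in both, and a single VAT removed liver at 16.2 CPM stands out for Cxcl13.

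Zap70 and Tcf7 did not follow Cd3e across livers. Tcf7 lay between 3.79 and 7.43 CPM in all 10 livers, while Cd3e lay between 0.630 and 3.14 CPM. Zap70 had 15.1, 9.73, 16.5, 9.18 and 11.0 CPM in VAT removed livers, against 9.30, 13.9, 10.5, 16.5 and 9.92 CPM in sham livers. Among VAT removed livers they were not alone in this. Ccr7 had 1.53, 1.09, 0.199, 1.15 and 0.868 CPM in these livers, where Cd3e was highest in liver 5. Cd2 was highest of these in liver 1, at 1.34 CPM, against 0.657 CPM in liver 5. In sham livers, by contrast, Ccr7 and Cd2 had the same order as Cd3e. There Ccr7 had 0.807, 1.58, 0.851, 0.787 and 2.01 CPM and Cd2 0.491, 1.06, 0.568, 0.252 and 1.72 CPM. Cd3e had 0.737, 2.56, 1.06, 0.630 and 3.14 CPM in sham livers. The log2 difference of Zap70 by surgery was 0.04 ± 0.21 and that of Tcf7 0.01 ± 0.17.

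The tissues were compared over the VAT removed mice, without the sham SAT libraries. The 5 VAT removed SAT libraries are among the 8 in which the members were low, and the choice of members rests on those values too. The differences are therefore descriptions, and nothing is read from the number called. Of 26 members with enough counts, edgeR called 2 higher and 8 lower in VAT removed SAT than in VAT removed liver, against 35% and 34.7% of 18546 genes tested. The median log2 difference of the members was -0.10, against -0.0079 over all genes. The fit scaled both tissues together, while the CPM given here were scaled within each tissue. CPM of SAT and liver are thus not on one scale, and their ratios do not equal the log2 differences. Il7r had 6.21, 6.57, 6.32, 4.06 and 5.72 CPM in VAT removed SAT, against 0.638, 0.689, 0.598, 0.691 and 1.37 CPM in VAT removed liver, with no overlap. Its log2 difference was 2.25 ± 0.25 (SE) and that of Cd2 1.79 ± 0.36. The third largest positive difference was that of Coch, at 0.77 ± 0.36, which was not among those called.

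Zap70 had the largest negative difference, with 1.94, 1.73, 1.17, 1.48 and 1.65 CPM in VAT removed SAT, against 15.1, 9.73, 16.5, 9.18 and 11.0 CPM in VAT removed liver, a log2 difference of -3.52 ± 0.21. Blk followed at -2.16 ± 0.39 and Cd22 at -1.63 ± 0.27. The others called lower were Tcf7, at -1.51, and the B cell genes Pax5, Cd79a, Ms4a1 and Cd79b. Without VAT removed liver 1 these 4 B cell genes were not called, and 4 members were called lower. Without VAT removed liver 5 the members called higher were 6 in place of 2, the added ones being Cd3e, Cd3g, Cd4 and Cd5. The count of lower members was 5 without VAT removed liver 2 or 3, or VAT removed SAT 3 or 4. Chst4, at 0 counts in all 5 VAT removed SAT libraries, had 10, 22, 2, 18 and 16 counts in VAT removed livers, and it was too low for the filter on low counts. Scaling by total counts alone put the median of all genes at 0.51, against -0.0079, and gave 6 members higher and 4 lower.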

How the data were processed

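Ribosomal RNA was removed from the total RNA of both tissues before sequencing, per the labels' protocols. Per the submitters' processing notes, bcl2fastq, STAR 2.5.1a, Subread and featureCounts 1.46 were used with the GRCm38 build, and the annotation, strand setting and treatment of multi-mapped reads are not stated there. The deposited table holds raw read counts per gene, not normalized by the authors. Of 40757 entries, 317 exact repeats were dropped. Symbols under several entries were kept apart, and of the 2 Ccl19 entries 1 has counts.

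The members and all gene lists were chosen with earlier results of these data known. All 31 members, from the B cell, T cell and node lists of the design, are accounted for. Values in every SAT library are given for 20 of them fixed by name, and the others by their range and by the values in sham SAT 3 and 4, and single liver values for members past an unadjusted p of 0.05. In the tissue comparison, fitted as a test, the 3 largest differences each way are given as descriptions, since its SAT libraries entered the choice of members. Other genes are up to 3 of each list, and the 12 most like and 6 least like, by the ratio stated in the text. Zap70 in liver, single genes such as Ebf1, Foxp3, Ighm, Igkc, Ighg2b, Igha, Ltbr, Selp and Ccl21a, and the marker genes Adipoq, Alb, Krt5, Krt14 and Tlx1 were named after their values were seen. A few genes of these lists are not reported here.

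CPM were scaled with TMM factors within each tissue. Fits used edgeR 4.0.16 under R 4.3.3 (filterByExpr, TMM, robust quasi-likelihood F-test, Benjamini-Hochberg over all genes tested, threshold 0.05), and SE comes from the F statistic. The fit was also run on simulated counts in which each gene varied on its own between libraries. No pair of libraries was shifted together there, as sham SAT libraries 3 and 4 are, and nothing is read from that run. Alternatives were DESeq2 1.42.0, limma-voom (limma 3.58.1), other scalings and filters, a block on library number, and fits without each single library or without sham SAT libraries 3 and 4 together. Ratios, sums and motif counts were computed in Python. Positions and exon lengths are from GENCODE M21, in which all 31 symbols matched. Nothing in the labels says which libraries shared an extraction or a sequencing run, and p-values measure the spread between libraries, which are 1 per mouse and tissue only as far as the labels say.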

Additional observations from a re-analysis of the deposited data

Results flagged for a closer look

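Dixon's test of single libraries was run on 74 groups of 5 libraries (members with a mean of at least 1 CPM), and chance flags about 1 in 20 groups. It picked out 7 values, of which 6 are the highest of their group and 3 are in VAT removed liver 1. In that library Pax5 was at 2.93 CPM, against 0.263 to 1.00 CPM in the other 4 VAT removed livers. Fcer2a was at 3.25 CPM there, against 0.897 to 1.42 CPM, and Cxcl13 at 16.2 CPM, against 0.172 to 0.199 CPM. In VAT removed liver 5 the T cell genes Cd3e, Cd4 and Lck were at 2.58, 2.55 and 2.42 CPM, against at most 0.998, 1.04 and 1.23 CPM in the other 4. Cd5 was low in VAT removed SAT 3, at 0.789 CPM against 1.52 to 1.69 CPM in the other 4. Sham SAT libraries 3 and 4 were not picked out by this test, since with 2 high libraries neither has a gap to its nearest neighbour.

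With all libraries, the values of Cr2 lay in opposite directions in the tissues. All 5 VAT removed livers were above the mean of the sham livers, with a log2 ratio of group means of 0.35, and all 5 VAT removed SAT libraries were below the mean of sham SAT, with -3.57. The SAT side rests on sham libraries 3 and 4, on which the members were chosen. Without them the log2 difference of Cr2 in SAT was 0.26, the same direction as in liver, and the difference between tissues was not tested.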

How the results depend on the processing

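In liver 0 genes were called in each direction by edgeR, and the counts higher and lower were 1 and 1 with total-count scaling, 1 and 2 with no filter, with a filter of 1 CPM in 5 libraries and with limma-voom, 89 and 134 with DESeq2, and 0 to 16 and 0 to 37 with single libraries left out, the largest without VAT removed liver 3. No alternative called a member in liver. In SAT, DESeq2 called 51 genes higher and 106 lower, with 14 members lower, a count tied to how they were chosen, and the members' median was -1.93 with limma-voom and -1.75 with library number as a replicate block. With single libraries left out, SAT gave 0 genes higher, 0 to 1 lower and a members' median of -4.32 to -3.20. Without sham SAT libraries 3 and 4 that median turned to 0.20 in edgeR, and to 0.20 in DESeq2 with 28 genes higher and 50 lower. Between tissues, total-count scaling gave 10184 genes higher and 3709 lower, 6 members higher and 4 lower, and a members' median of 0.41. limma-voom called 4 members lower. With single libraries left out, 2 to 6 members were higher and 4 to 8 lower, with a median of -0.21 to 0.0043, and the difference of Cxcl13, -0.09 with all libraries, ran from -0.69 (without VAT removed SAT 1) to 4.06 (without VAT removed liver 1). Il7r, Cd2, Zap70, Tcf7, Blk and Cd22 kept their calls under all 17 alternatives, Cd79a under 8 and Cd79b under 6 of them. The cause of these changes was not tested.

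Library numbers were not treated as pairs. Deviations of libraries with the same number correlated between -0.0906 and 0.245 in liver, -0.307 and 0.446 in SAT and 0.0494 and 0.124 between tissues, where each correlated best with its own number in 5 of 5. With the replicate block edgeR called 0 genes by surgery in either tissue, and 2 members higher and 6 lower between tissues, without Pax5 and Cd79a. Counts under about 10 per library, as for Madcam1, Ccl19 and Glycam1 outside sham SAT 3 and 4, limit what could be seen of vessel and stroma genes.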
